A study of Homo sapiens with 15 samples.

Results

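The transcripts of 9 chaperones and folding helpers of the endoplasmic reticulum (ER) were followed across a dose series of ZJ-101. They were HSPA5, HSP90B1, CALR, CANX, HYOU1, SDF2L1, MANF, CRELD2 and SIL1, taken by gene symbol from a table of 59608 genes. All 9 were in the table, and all passed the filter for low values, a mean of at least 10 normalized counts. ZJ-101 is a small molecule made in the laboratory after the pattern of superstolide A. The cells were MDA-MB-231, a human triple-negative breast cancer line, grown flat in dishes and exposed for 6 h to 0.1% DMSO vehicle or to 0.5, 5, 50 or 500 nM of the compound. Each of these 5 groups had 3 dishes and 3 poly-A RNA libraries, and the labels give no other treatment and no change of genotype. The values are the deposited normalized counts, that is, reads per gene divided by a size factor for each library. The 15 libraries held between 12415519 and 15284762 reads on genes (median 13320354), with 0.889% to 2.06% of these on mitochondrial genes.

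The ER is where secreted and membrane proteins are folded. HSPA5, the Hsp70 of this compartment, binds exposed stretches of unfolded chains in cycles of ATP binding and release, while CALR and CANX hold sugar-bearing chains and HSP90B1 acts on chains that are further along. When unfolded chains build up, the sensors IRE1, PERK and ATF6 start the unfolded protein response, and cleaved ATF6 and spliced XBP1 then act on short elements in the promoters of ER chaperone genes to raise their transcription.

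All 9 transcripts were lower in every library at 500 nM than in every DMSO library, and 7 of the 9 passed the test there. Of all genes tested, 19.6% were lower in every library in this comparison and 10.1% fell past the threshold. HSPA5 fell most, to 38.5% of its DMSO mean, followed by MANF at 54.9% and CALR at 55.5%. CANX, the membrane-bound partner of CALR, stayed at 94% of its DMSO mean and did not pass. The genes also differed in the dose at which they moved: MANF and SDF2L1 had made 91.2% of their log2 change by 50 nM, HSPA5 34.4% and HYOU1 0.913%.

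HSPA5 (ENSG00000044574.9) lies on the minus strand at chr9:125234853-125241382 in GENCODE 44 on GRCh38, the build of the authors' alignment. HSP90B1 (ENSG00000166598.16) lies on the plus strand at chr12:103930107-103953931, CALR on the plus strand at chr19:12938578-12944489 and CANX on the plus strand at chr5:179678628-179731641. HYOU1 lies on the minus strand at chr11:119044188-119057227 and SIL1 on the minus strand at chr5:138946724-139293557. SDF2L1 at chr22:21642302-21644299, MANF at chr3:51385291-51389397 and CRELD2 at chr22:49918167-49927540 are on the plus strand. Exon bases shared with other annotated genes made up 0% for HSPA5, SDF2L1 and MANF and between 3.25% and 9.77% for the other 6, and the strand setting of the counting is not given in the sources used here. Processed pseudogenes resemble parts of HSPA5 and HSP90B1 with 92.6% to 93.7% identity. HSPA5P1 and HSP90B2P had means of 0.661 and 6 normalized counts over all libraries, and the gene with the lower level of the pair, HSPA5, had 5282 or more in every library.

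The promoters were searched for elements through which the unfolded protein response can act on ER chaperone genes. The ER stress response element (ERSE) was taken as CCAAT and CCACG with 9 bases between them, the type II element (ERSE-II) as ATTGG and CCACG with 1 base between them, and the UPR element (UPRE) as TGACGTGG. Both strands were read in RefSeq promoters of 300 bases, 250 before and 50 after the transcript start, on GRCh38.p14. Of 35116 promoters, 0.0769% held an ERSE, 0.0541% an ERSE-II and 0.729% a UPRE. Among the 9 chaperones, 5 had an ERSE (HSPA5, HSP90B1, CALR, CANX and CRELD2) and 2 an ERSE-II (HYOU1 and SDF2L1). The 9 were chosen as known targets of this response, so a higher share than among all promoters was built into the choice. HSP90B1 had the only promoter among the 35116 with 2 exact ERSE matches. CANX has 4 listed promoters, and 3 of them share the same match. MANF and SIL1 had no match, which says only that these exact letters are not in the window. The matches are printed below because they show which form of the element each promoter holds and where these forms differ, each with 15 bases on either side and on the strand on which the element reads forward. Capitals mark the element.

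HSPA5 ERSE, chr9:125241376-125241424, minus strand: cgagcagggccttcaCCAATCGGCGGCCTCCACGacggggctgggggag
HSP90B1 ERSE, chr12:103930201-103930249, plus strand: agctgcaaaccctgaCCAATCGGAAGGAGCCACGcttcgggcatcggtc
HSP90B1 ERSE, chr12:103930306-103930354, minus strand: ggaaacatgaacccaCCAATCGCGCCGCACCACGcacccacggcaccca
CALR ERSE, chr19:12938369-12938417, minus strand: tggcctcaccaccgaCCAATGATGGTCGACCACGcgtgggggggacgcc
CRELD2 ERSE, chr22:49918539-49918587, minus strand: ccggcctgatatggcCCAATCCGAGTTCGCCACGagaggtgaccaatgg
CANX ERSE, chr5:179698763-179698811, plus strand: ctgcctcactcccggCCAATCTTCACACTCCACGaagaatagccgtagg
HYOU1 ERSE-II, chr11:119057365-119057405, plus strand: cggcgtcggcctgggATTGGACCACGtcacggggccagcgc
HYOU1 ERSE-II, chr11:119057259-119057299, plus strand: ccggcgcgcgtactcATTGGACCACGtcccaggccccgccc
SDF2L1 ERSE-II, chr22:21642099-21642139, minus strand: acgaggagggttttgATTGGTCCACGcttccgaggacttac

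The farther of the HYOU1 matches overlaps a UPRE on the other strand. The positions varied from gene to gene: the HSPA5 element ended at position -48 from the start and the CALR element began at -225. CANX carries an exact ERSE and did not pass at any dose in the fit of all 15 libraries, while MANF carries none and fell by 0.86 on the log2 scale at 500 nM. The other genes with an ERSE or ERSE-II (HSPA5, HSP90B1, CALR, CRELD2, HYOU1 and SDF2L1) passed as fallen at 500 nM, and SIL1, with no match, did not pass. Whether the elements bear on the falls was not tested. Paralogs outside the ER or outside the response, described further on, gave 0 promoters with any of the 3 elements among the 13 genes with a listed promoter. Among all promoters 0.131% held an ERSE or ERSE-II and 0.729% a UPRE, so 0 among 13 does not set the paralogs apart. A match is a description of the sequence and not evidence of a bound factor, and binding was not measured in these samples.

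**Figure D1:**
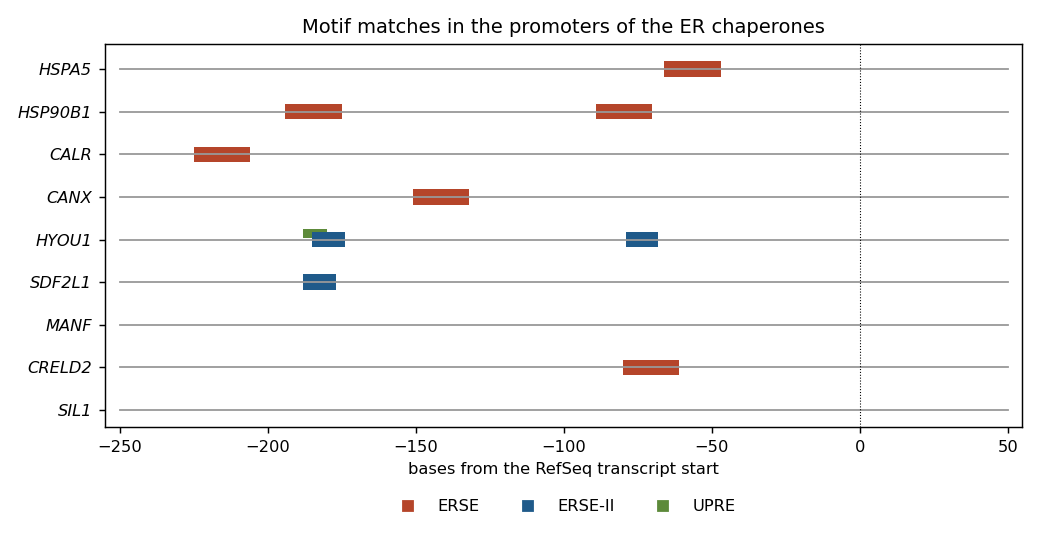
Positions of exact ERSE (red), ERSE-II (blue) and UPRE (green) matches in the promoters of the 9 chaperones, in bases from the RefSeq transcript start (dotted line at 0); each grey line is a window of 300 bases, and for CANX 1 of the 3 promoters with the match is drawn. 7 of the 9 genes have an ERSE or ERSE-II, HSP90B1 and HYOU1 have 2 each, and MANF and SIL1 have none.

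HSPA5 had 14375, 14267 and 13787 normalized counts in the DMSO libraries. At 0.5 nM the libraries had 14072, 14500 and 13906, at 5 nM 12377, 12560 and 12287, at 50 nM 10064, 10736 and 9771, and at 500 nM 5384, 5282 and 5651. The 0.5 nM libraries overlapped those of DMSO, and from 5 nM on every library of a dose lay below every library of the dose before it. The log2 fold changes on the log2(normalized count + 1) scale against DMSO were -0.19 at 5 nM (SE 0.04, adjusted p = 0.022, limma), -0.47 at 50 nM (SE 0.04, adjusted p = 4.0e-07) and -1.38 at 500 nM (SE 0.04, adjusted p = 1.5e-13). The call at 5 nM rests on few libraries: the adjusted p was between 0.07 and 0.12 in limma without DMSO replicate 1 or 2 or without any single 5 nM library. The largest step lay between 50 and 500 nM, where HSPA5 changed by -0.91 (95% interval -0.99 to -0.82, adjusted p = 4.8e-10, limma).

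HSP90B1 encodes GRP94, the Hsp90 of the ER lumen, which takes over chains that HSPA5 has released. It had 16023, 15886 and 15940 normalized counts in DMSO, 14376, 15696 and 14819 at 0.5 nM, 14181, 14259 and 14739 at 5 nM, 14487, 14717 and 13716 at 50 nM and 12571, 12726 and 12459 at 500 nM. Every treated library lay below the DMSO libraries, the lower 3 doses overlapped each other, and the 500 nM libraries lay below all others. It fell by 0.34 on the log2 scale at 500 nM (SE 0.04, adjusted p = 8.1e-06, limma) and by 0.16 at 50 nM (adjusted p = 0.028), and its difference of -0.15 at 5 nM did not pass in limma (adjusted p = 0.078) but did in DESeq2 (adjusted p = 0.0058). The call at 50 nM was lost without any single DMSO library and without 50 nM replicate 1 or 3 (adjusted p 0.057 to 0.15).

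CALR and CANX are the lectin pair of the ER, CALR soluble in the lumen and CANX anchored in the membrane, and both hold chains that carry a trimmed sugar. CALR had 20406, 20405 and 19655 normalized counts in DMSO, 19019, 19395 and 19102 at 0.5 nM, 16902, 16883 and 17005 at 5 nM, 12118, 14204 and 12847 at 50 nM and 11097, 10860 and 11587 at 500 nM. The libraries of each dose lay below those of the dose before, with no overlap. CALR fell by 0.25 at 5 nM (SE 0.05, adjusted p = 0.0098), by 0.63 at 50 nM (adjusted p = 7.3e-08) and by 0.85 at 500 nM (adjusted p = 5.2e-10, limma). The 5 nM call was lost without DMSO replicate 1 or 2 (adjusted p = 0.061 and 0.059). CANX had 19973, 20029 and 20124 in DMSO and 18784, 19057 and 18706 at 500 nM, which do not overlap but differ by a log2 fold change of only -0.09 (95% interval -0.19 to 0.01, adjusted p = 0.24, limma). At 50 nM its 20306, 20148 and 19993 overlapped DMSO. At 0.5 nM CANX had 19563, 16727 and 19167, and the low value belongs to replicate 2. That library stood apart in several of the 9 genes, and leaving it out also moved the calls among all genes, as given below. Without that library the CANX difference at 500 nM passed in limma (adjusted p = 0.044) at the same size of -0.09.

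HYOU1 and SIL1 both serve as nucleotide exchange factors for HSPA5, and HYOU1, the large Hsp70 relative GRP170, also binds chains itself. HYOU1 had 4512, 4337 and 4172 normalized counts in DMSO and 4264, 4374 and 4344 at 50 nM, so these groups overlapped, with a log2 fold change whose 95% interval was -0.11 to 0.11. In between, at 0.5 nM, it had 4201, 3606 and 4209, the 3606 in replicate 2, and at 5 nM 4086, 3966 and 4131. At 500 nM it had 3369, 3302 and 3159, below all other libraries, and fell by 0.41 (SE 0.05, adjusted p = 1.8e-05, limma). SIL1 had 368.1, 389.5 and 353.1 in DMSO and 319, 329.7 and 314.4 at 500 nM, which do not overlap, and its log2 fold change of -0.20 (95% interval -0.36 to -0.04) did not pass (adjusted p = 0.074, limma). At 0.5 nM SIL1 had 373.9, 455.5 and 368.5, where replicate 2 was again the library apart. Without it the 500 nM difference passed (adjusted p = 0.019, limma), and all 9 genes did. In that fit 1654 of 13563 genes tested fell at 500 nM, against 1366 of 13561 with all 15 libraries. All 5 groups enter 1 fit, so 0.5 nM replicate 2 also bears on contrasts without its own group. When it was left out, 425 genes fell at 5 nM in place of 232. From 5 to 50 nM 572 fell in place of 324, and from 50 to 500 nM 402 in place of 244. Leaving out any other single library gave fewer falls in these contrasts. At 0.5 nM itself 107 fell in place of 125. Why this library differs was not tested. All 9 also passed in limma with the 500 nM and DMSO libraries alone, where 1742 of 13561 genes fell.

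SDF2L1 and MANF act as partners of the HSPA5 cycle, SDF2L1 in a complex with ER J-domain proteins and MANF by binding HSPA5 in its ADP state. CRELD2 is an ER resident that can also be secreted. MANF had 1711, 1695 and 1550 normalized counts in DMSO, 1591, 1750 and 1630 at 0.5 nM, 1208, 1183 and 1131 at 5 nM, 926.2, 1006 and 933.9 at 50 nM and 875.5, 936.5 and 906.2 at 500 nM. Its 0.5 nM libraries overlapped DMSO, the 5 nM libraries lay below both, and those at 50 and 500 nM overlapped each other. MANF fell by 0.49 at 5 nM (SE 0.05, adjusted p = 4.6e-05), the largest change of the 9 genes at that dose, by 0.79 at 50 nM and by 0.86 at 500 nM (adjusted p = 1.3e-09, limma).

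SDF2L1 had 426.7, 448.2 and 424.1 normalized counts in DMSO, 402.2, 383.3 and 369.8 at 5 nM, 313.8, 344.9 and 348.9 at 50 nM and 335.3, 317.6 and 329.4 at 500 nM. The upper 2 doses overlapped and lay below the rest. It fell by 0.37 at 50 nM (SE 0.10, adjusted p = 0.025) and by 0.40 at 500 nM (adjusted p = 0.0055, limma), and the 50 nM call was lost without any single DMSO library or 50 nM replicate 1 (adjusted p 0.062 to 0.13). At 0.5 nM it had 444, 612.7 and 446.7, the 612.7 again in replicate 2. CRELD2 had 382.5, 366.2 and 399.7 in DMSO, 420.3, 421.5 and 367.5 at 0.5 nM, 352, 368.1 and 359.5 at 5 nM, 320.2, 316.5 and 315.9 at 50 nM and 270.1, 260.9 and 247.3 at 500 nM. From 5 nM upward the groups of CRELD2 did not overlap each other. It fell by 0.27 at 50 nM (SE 0.07, adjusted p = 0.022) and by 0.56 at 500 nM (adjusted p = 8.2e-06, limma). Its call at 50 nM was lost with DESeq2 (adjusted p = 0.054) and in limma without DMSO replicate 1 or 3 or any single 50 nM library (adjusted p 0.051 to 0.11).

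**Figure D2:**
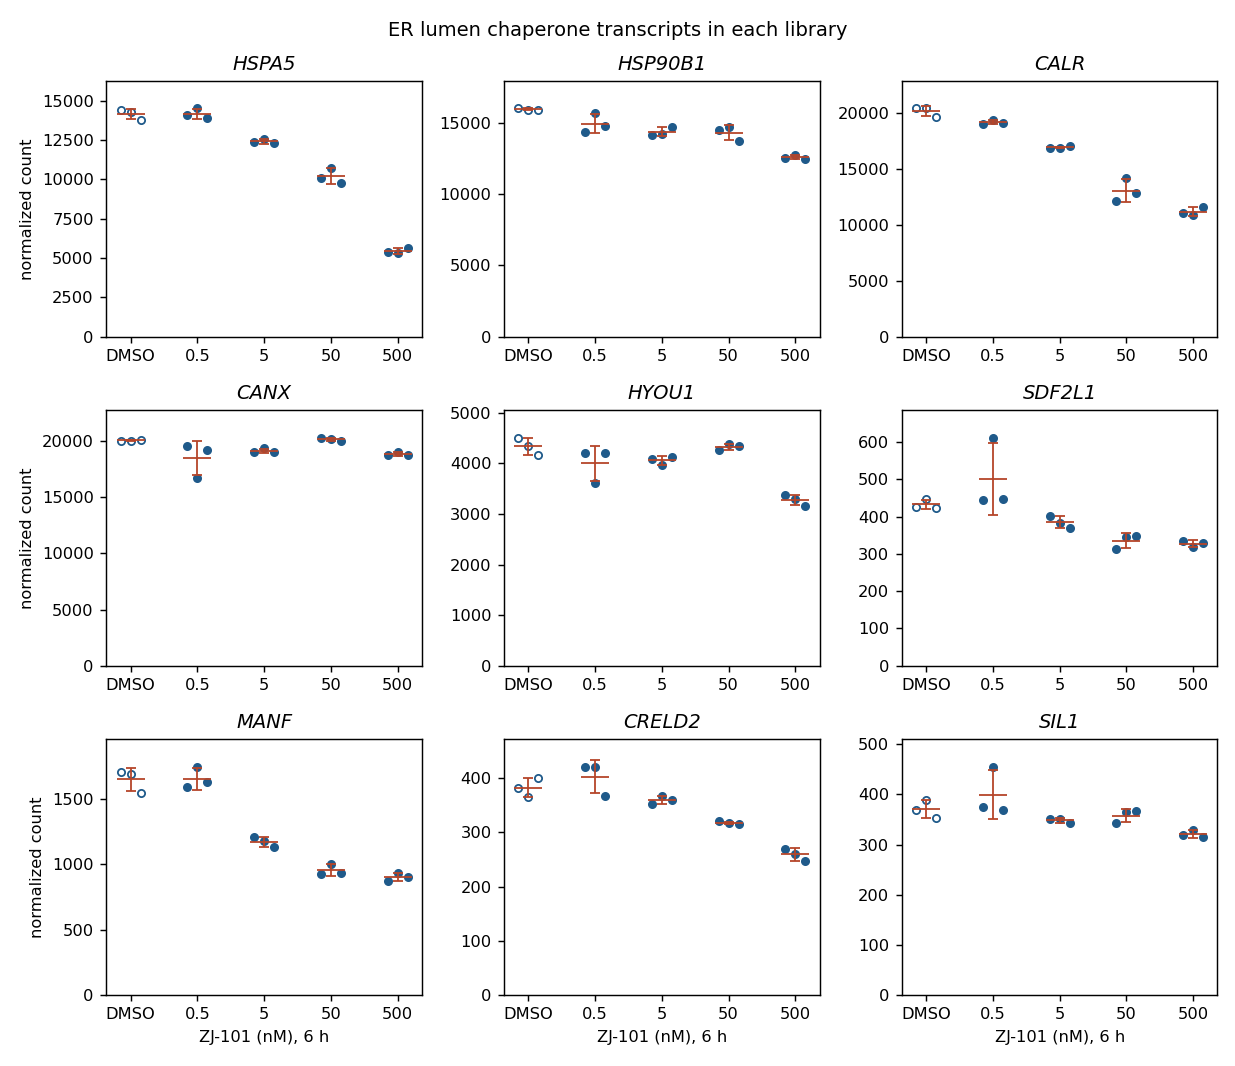
Normalized counts of the 9 chaperones in each of the 15 libraries, by dose of ZJ-101 in nM; points are libraries (open for DMSO), horizontal marks are means and bars are SDs (n = 3), and every axis starts at 0. HSPA5 goes from 14143 ± 313 in DMSO to 5439 ± 190 at 500 nM, CANX from 20042 ± 76.6 to 18849 ± 184, and in 0.5 nM replicate 2 CANX and HYOU1 lie low and SDF2L1 and SIL1 high.

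Counted over the 9 genes, 0 fell at 0.5 nM, 3 at 5 nM, 6 at 50 nM and 7 at 500 nM, and 0 rose at any dose. Among all 13561 genes tested, limma called 0.922% as fallen at 0.5 nM, 1.71% at 5 nM, 3.71% at 50 nM and 10.1% at 500 nM, and 0.251%, 0.465%, 2.29% and 7.69% as risen. At 0.5 nM, HSP90B1, CANX and HYOU1 had an unadjusted limma p under 0.05 with log2 fold changes of -0.09, -0.12 and -0.12, and edgeR and DESeq2 also called 0 of the 9. Without 0.5 nM replicate 2 the CANX and HYOU1 differences were -0.05 and -0.04, and without 0.5 nM replicate 1 that of HSP90B1 was -0.06. The median log2 fold change of the 9 genes was -0.15 at 5 nM, -0.27 at 50 nM and -0.41 at 500 nM, while the median over all tested genes was 0.003 at 500 nM. Every library of the dose lay below every DMSO library for 8 of the 9 genes at 5 nM, 6 at 50 nM and 9 at 500 nM, against 12.7%, 13.2% and 19.6% of all genes tested. The counts in the middle of the series depended on single libraries. The count at 5 nM was 1, MANF, without DMSO replicate 1 or 2. The count at 50 nM was 3 without DMSO replicate 1, DMSO replicate 3 or 50 nM replicate 1. At 500 nM it was 7 to 9 whichever library was left out. With no filter on low genes, HSPA5 at 5 nM and HSP90B1 at 50 nM also no longer passed (adjusted p = 0.061 and 0.085, limma). All doses share the DMSO libraries, so their fold changes are not independent of each other. In RNA from a whole dish, less of a transcript in every cell and its loss from some of the cells cannot be told apart.

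**Figure D3:**
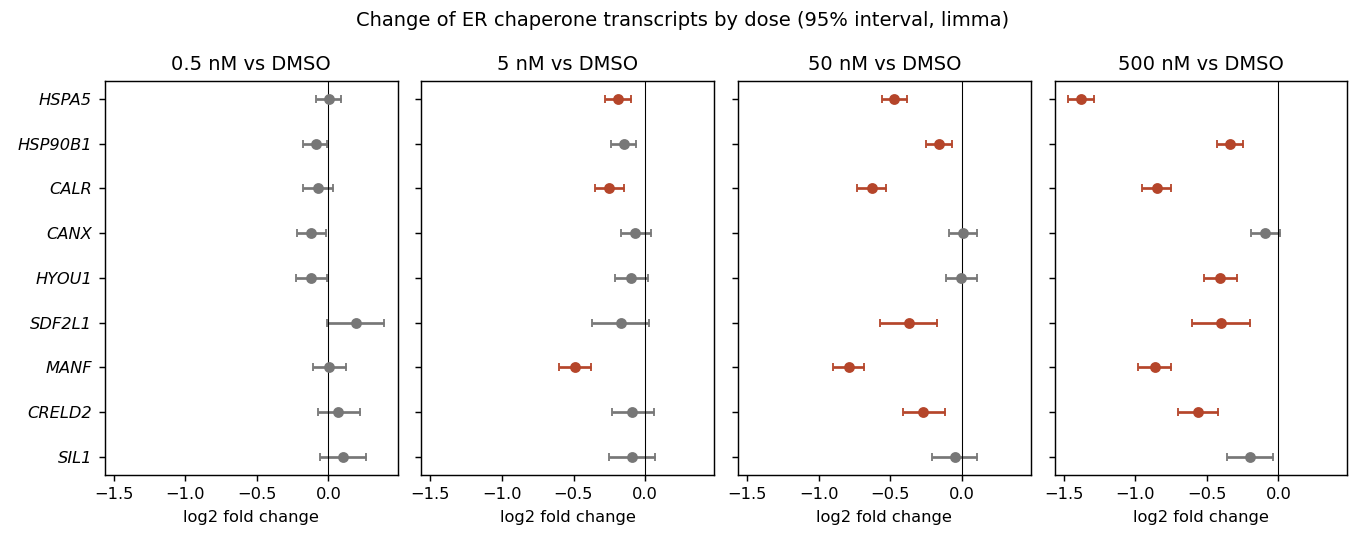
Log2 fold change of each chaperone against DMSO at 0.5, 5, 50 and 500 nM ZJ-101, with 95% intervals from limma; red points passed an adjusted p of 0.05 and grey points did not. No gene passed at 0.5 nM, HSPA5, CALR and MANF passed at 5 nM, and HSPA5 stands apart at 500 nM with -1.38.

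Steps between neighboring doses, in which DMSO enters only the shared estimate of the spread, placed the calls at different points of the series. From 0.5 to 5 nM only MANF passed, with a fall of 0.50 on the log2 scale (adjusted p = 4.2e-04, limma), 1 of the 9 genes against 0.0885% of all genes tested. SDF2L1 at -0.36 (95% interval -0.56 to -0.16), HSPA5 at -0.19 (-0.28 to -0.10) and CALR at -0.18 (-0.28 to -0.08) were also lower but did not pass (adjusted p 0.16 to 0.32, limma). For SDF2L1 the 0.5 nM libraries include the high replicate 2. DESeq2 called 3 in this step, adding HSPA5 and CALR, beside 25 fallen among the 9994 genes it tested. From 5 to 50 nM, 3 of the 9 fell against 2.39% of all genes, namely CALR by 0.38 (adjusted p = 8.2e-05), MANF by 0.30 (adjusted p = 0.0022) and HSPA5 by 0.29 (adjusted p = 3.3e-04, limma). From 50 to 500 nM, 5 fell against 1.80%. They were HSPA5 by 0.91, HYOU1 by 0.40 (adjusted p = 2.2e-04, limma), CRELD2 by 0.29, CALR by 0.22 and HSP90B1 by 0.18. In this last step MANF changed by -0.08 (95% interval -0.19 to 0.04) and SDF2L1 by -0.04 (95% interval -0.23 to 0.16). The calls of HSPA5 and HYOU1 in it held whichever library was left out, and the other 3 did not: the count dropped to 2 without 50 nM replicate 2 or 500 nM replicate 2, and to 3 without 50 nM replicate 1 or 500 nM replicate 1 or 3. The CRELD2 step was also lost with DESeq2 (adjusted p = 0.074) and the HSP90B1 step in limma with no filter on low genes (adjusted p = 0.065).

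A slope was fitted on dose rank, with DMSO as 0 and 500 nM as 4. It was below 0 and passed for 8 of the 9 genes, against 9.33% of all genes tested. HSPA5 lost 0.32 on the log2 scale per dose rank (SE 0.04), MANF 0.25 and CALR 0.23. The slope of CANX was -0.0049 (95% interval -0.03 to 0.02, adjusted p = 0.85, limma). The slopes of SIL1 (-0.06, adjusted p = 0.045, limma) and HYOU1 (-0.07, adjusted p = 0.025, limma) were near the threshold. The SIL1 call was lost without DMSO replicate 2, 0.5 nM replicate 1 or 3, 50 nM replicate 1 or any single library at 5 or 500 nM (adjusted p 0.05 to 0.13), and with no filter on low genes (adjusted p = 0.086, limma). The HYOU1 call was lost without DMSO replicate 1 or any single 500 nM library (adjusted p 0.061 to 0.11).

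Because a ratio of transcripts within a library does not depend on the scaling between libraries, each of the other 8 genes was also set against HSPA5. A permutation test of the slope of the log2 ratio on dose rank, with 100000 resamples and adjustment over the 8 pairs, passed for 7. All 8 ratios share HSPA5, which fell most, so the tests are not independent and a rising ratio largely restates that fall. How many of all tested genes would pass in the same way was not computed. The CANX to HSPA5 ratio rose from 0.503 to 1.793 on the log2 scale between the DMSO and 500 nM means, with SDs of 0.038 and 0.063 over 3 libraries each (permutation adjusted p = 4.8e-05). The ratios of SIL1 and HSP90B1 rose by 1.175 and 1.037 between these groups. The MANF to HSPA5 ratio did not pass (permutation adjusted p = 0.23): its slope was 0.071 with an SE of 0.056, over a series in which MANF fell at lower doses and HSPA5 fell further at 500 nM. Between the DMSO and 500 nM libraries alone this ratio rose by 0.514 (SE 0.053) with no overlap, beside 0.528 for CALR. A straight slope does not capture such a course. The CALR ratio passed narrowly (permutation adjusted p = 0.036) and was lost without 0.5 nM replicate 2 or any single 500 nM library (adjusted p 0.051 to 0.12).

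As a share of the library, the 9 transcripts together took 0.577%, 0.575% and 0.568% of reads on genes in DMSO, and 0.39%, 0.395% and 0.397% at 500 nM. The means in between were 0.544% at 0.5 nM, 0.509% at 5 nM and 0.475% at 50 nM. The makeup of this pool shifted as well. Of the reads of the 9 genes, HSPA5 made up 18.3% ± 0.18 (SD) in the 3 DMSO libraries. At 0.5 nM its share was 19.2% ± 0.54, above DMSO in every library, and at 5 nM 17.9% ± 0.21, overlapping DMSO. It was 15.9% ± 0.31 at 50 nM and 10.2% ± 0.33 at 500 nM, with no overlap with each other or with DMSO.

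**Figure D4:**
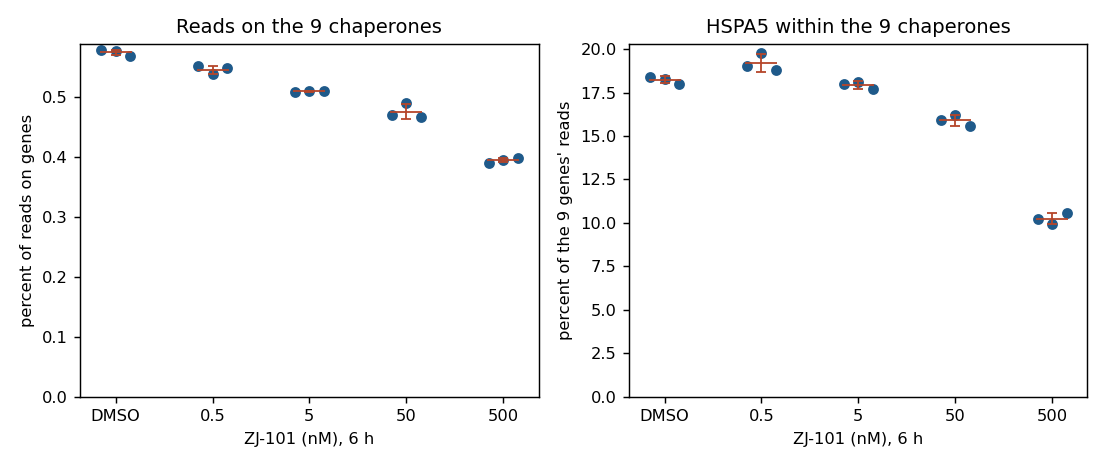
Left, reads on the 9 chaperone genes as a percent of all reads on genes, and right, HSPA5 reads as a percent of the reads of the 9 genes, by dose of ZJ-101 in nM; points are libraries, marks are means and bars SDs (n = 3), with axes from 0. The mean pool shrinks from 0.573% in DMSO to 0.394% at 500 nM, and the mean share of HSPA5 in it from 18.3% to 10.2%.

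Levels were compared between genes per kilobase of the canonical GENCODE transcript. In DMSO the normalized count per kilobase was 10602 ± 228 (SD, n = 3) for CALR, 5733 ± 24.9 for HSP90B1, 4078 ± 15.6 for CANX and 3607 ± 79.9 for HSPA5. MANF followed at 1817 and HYOU1 at 943.9, and SDF2L1, CRELD2 and SIL1 had 524.8, 268.1 and 196. The order was the same at every dose, although HSPA5 came down to 1387 ± 48.5 per kilobase at 500 nM, far from CANX at 3835 ± 37.5. Neighbors in the order overlapped only for CANX and HSPA5 at 0.5 nM and for CRELD2 and SIL1 at 500 nM.

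Paralogs that work in other compartments, or outside the ER stress response, were compared with the 9 genes. HSPA8, the constitutive Hsp70 of the cytosol, had 32831, 30333 and 29337 normalized counts in DMSO and 73465, 72786 and 71796 at 500 nM, and rose by 1.24 on the log2 scale (limma, adjusted p = 1.9e-11). HSP90AA1, the inducible cytosolic Hsp90, went from 43811, 44275 and 43780 to 100688, 102246 and 99685, a rise of 1.20 (adjusted p = 5.5e-11, limma). HSPH1, the cytosolic relative of HYOU1, went from 3284, 2994 and 3149 to 8734, 8693 and 8296, a rise of 1.45 (adjusted p = 2.1e-11, limma). For these 3 genes every 500 nM library was above every DMSO library, while their ER counterparts HSPA5, HSP90B1 and HYOU1 lay below in every library.

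HSP90AB1, the constitutive cytosolic Hsp90, rose by 0.64, HSPA4 by 0.42 and HSPA9, the mitochondrial Hsp70, by 0.26 (adjusted p = 1.7e-04 for the last, limma). HSPA13, an Hsp70 relative of the microsomal fraction, fell by 0.60 (adjusted p = 1.4e-07, limma), and its libraries went from 1956, 2167 and 2176 to 1381, 1482 and 1306. TRAP1, the mitochondrial Hsp90, SDF2, CLGN, HSPBP1 and CRELD1 did not pass, with log2 fold changes between -0.16 and 0.10. CRELD1 had a mean of only 22.37 normalized counts in DMSO and an interval of -0.80 to 0.48. Of all genes tested, 7.69% rose and 10.1% fell at this dose. CDNF and CALR3, the relatives of MANF and CALR, had means of 4 and 0.127 normalized counts and were not tested.

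The ratio of each ER chaperone to its paralog was tested over all 15 libraries, in 12 pairs. By the permutation test with adjustment over the 12, the slope passed for 10 pairs, and each of these 10 ratios fell with dose. HSPA5, HSP90B1 and HYOU1 recur across the pairs and most of their paralogs rose, so the 10 calls are not independent. They follow in part from the changes given above, and pairs of other genes were not tested. The HSPA5 to HSPA8 ratio fell by 0.668 per dose rank, the steepest, and its log2 means were -1.123 and -3.740 in the DMSO and 500 nM libraries, with SDs of 0.059 and 0.064 (permutation adjusted p = 2.4e-05, where 1.0e-05 is the smallest unadjusted p that the resamples can give). The slope was -0.459 for HYOU1 to HSPH1 and -0.396 for HSP90B1 to HSP90AA1. HSPA5 to HSPA13 had a slope of -0.175 (permutation adjusted p = 8.6e-05), so HSPA5 lost more than this paralog that fell with it. SIL1 to HSPBP1 passed with a small slope of -0.051 (permutation adjusted p = 0.0042). CRELD2 to CRELD1 (permutation adjusted p = 0.22) and CANX to CLGN (permutation adjusted p = 0.66) did not pass.

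**Figure D5:**
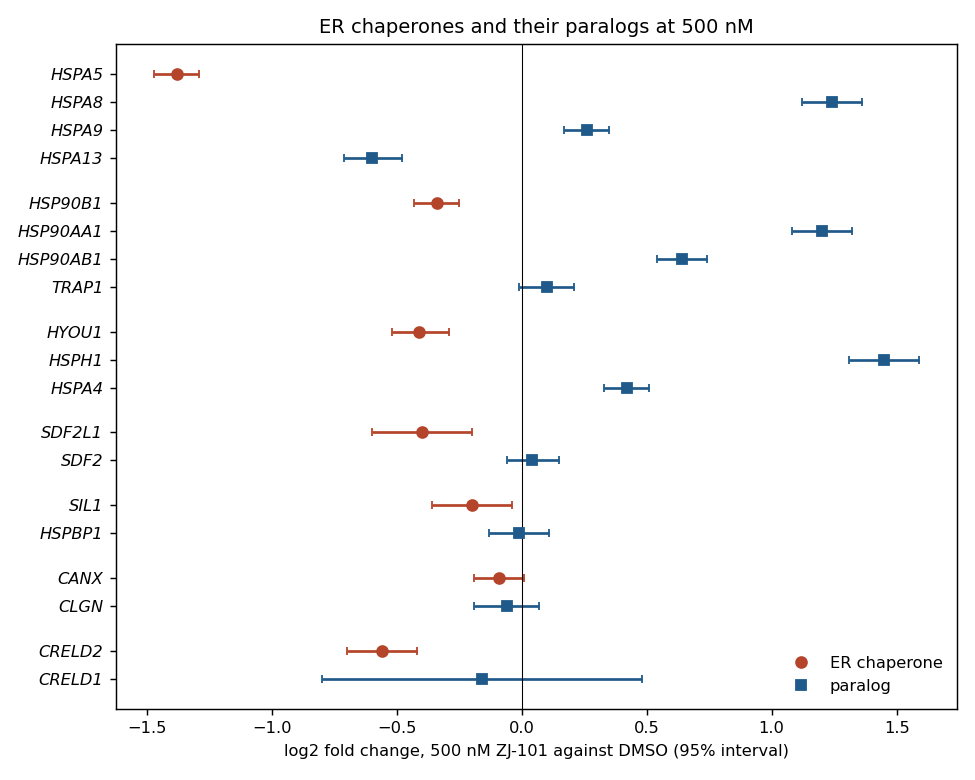
Log2 fold change at 500 nM ZJ-101 against DMSO with 95% intervals from limma, for 7 ER chaperones (red circles) and their paralogs (blue squares), grouped by family. HSPA8, HSP90AA1 and HSPH1 lie at 1.24, 1.20 and 1.45, while HSPA5, HSP90B1 and HYOU1 lie at -1.38, -0.34 and -0.41; HSPA13 lies below 0 at -0.60.

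Other genes of ER folding were described by 7 lists, of which 69 genes were tested. At 500 nM 40 of these fell and 5 rose, with a median log2 fold change of -0.23, beside 10.1% and 7.69% of all genes tested and their median of 0.003. The J-domain proteins, which deliver chains to HSPA5 and start its ATP hydrolysis, had 4 of 7 fallen and 0 risen. DNAJC3, a J-domain protein of the lumen also known as P58IPK, fell from 1352 ± 38.8 to 629.9 ± 8.9 normalized counts (SD, n = 3), a change of -1.10 on the log2 scale (limma, adjusted p = 9.5e-10). DNAJB11, which works with SDF2L1, fell by 0.43 and DNAJB9 by 0.42.

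Of 18 protein disulfide isomerases and oxidases, which make and rearrange disulfide bonds, 14 fell and 1 rose, with a median of -0.39. ERO1B, an oxidase that recharges these enzymes, fell from 259.4 ± 3.12 to 122.5 ± 3.09 normalized counts (SD, n = 3), and ERP44, which retains ERO1 enzymes in the early secretory pathway, fell by 0.75 (adjusted p = 5.2e-07, limma). TXNDC5 had the largest fall of all lists, -2.58, with an SE of 0.48, replicates of 75.43 ± 69.8 normalized counts (SD, n = 3) at 500 nM and 61.1% of its exon bases shared with other genes. TMX2, a membrane-bound thioredoxin-like protein, rose by 0.27 (adjusted p = 0.0033, limma).

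Partners of CALR and CANX in the sugar-guided cycle had 8 of 10 fallen and 0 risen, with a median of -0.43. MOGS, the glucosidase that takes the outermost glucose off new glycans, fell from 1386 ± 106 to 684.8 ± 25.7 normalized counts (SD, n = 3), a change of -1.01 on the log2 scale (limma, adjusted p = 2.6e-10). EDEM3 and EDEM1, which trim mannose and send chains to degradation, fell by 0.99 and 0.56. Beside these partners, CALR fell by 0.85 and CANX was at -0.09.

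Of 13 tested sensors and transcription factors of the unfolded protein response, 5 fell and 2 rose, with a median of -0.0038. XBP1 fell from 1839 ± 90.9 to 926.5 ± 32.7 normalized counts (SD, n = 3), a change of -0.99 on the log2 scale (limma, adjusted p = 4.4e-10), and these are counts of all XBP1 transcripts, spliced or not. ATF6, the sensor that is cleaved into a factor for the ERSE, fell by 0.62, and CREB3L1, an ER-bound factor of the same kind, fell by 0.50. PPP1R15A, which directs removal of the phosphate that PERK places on eIF2 alpha, rose by 0.32 and ERN1, which encodes IRE1, by 0.31 (adjusted p = 0.0022 and 0.0058, limma). ATF4 at -0.0038 and DDIT3 at 0.29 did not pass, and DDIT3 shares 39.6% of its exon bases with other genes.

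Of 12 genes of ER-associated degradation, 5 fell and 2 rose, with a median of -0.11, and without DMSO replicate 2 or 500 nM replicate 1 or 3 the number that fell was 3. ERLEC1, a lectin of this route, fell by 0.88 and HERPUD1, a membrane scaffold of it, by 0.66. SYVN1, the ubiquitin ligase HRD1, rose by 0.29 and SELENOS by 0.27 (adjusted p = 2.9e-04 and 7.8e-04, limma), while SEL1L, the partner of SYVN1, fell by 0.28. Of the 3 KDEL receptors, which bring lumenal chaperones back from the Golgi, KDELR3 fell by 0.34 (adjusted p = 0.015, limma). That call was lost without DMSO replicate 1 or 2 or 500 nM replicate 2. KDELR1 at -0.06 and KDELR2 at -0.09 did not pass. Of 6 tested ER peptidyl-prolyl isomerases, 3 fell and 0 rose, among them FKBP9 by 0.62 and PPIB, which is cyclophilin B, by 0.44.

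Over the 15 libraries, the genes whose log2 values ran most like those of HSPA5 were sought among 9965 genes with a mean of at least 100. They were NFE2L3 with a Pearson r of 0.988, SOCS3 with 0.982, PDIA3 with 0.972, NFKBIA with 0.971 and CDKN2D with 0.966. All 5 also fell at 500 nM, with log2 fold changes between -1.89 and -0.43. Only PDIA3, the disulfide isomerase that works with CALR and CANX, is an ER folding gene among them. Of the 9 chaperones, CRELD2 was the most like HSPA5, with an r of 0.949 and rank 20, followed by CALR with 0.922 (rank 78) and HSP90B1 with 0.91 (rank 110). MANF had an r of 0.813 (rank 455), HYOU1 0.786 (rank 567), SDF2L1 0.723 (rank 814), SIL1 0.715 (rank 853) and CANX 0.11 (rank 4371). Many genes outside the 9 thus ran closer to HSPA5 than most of its fellow chaperones did. The points share the dose groups and the scaling of the libraries, so these values describe likeness of profile and carry no test.

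Markers expected to be high in this line were high, and those expected to be low were far lower. Of the latter, CDH1 had 107 to 206 and GATA3 122 to 168 normalized counts over all libraries, so these were not absent. VIM, CD44, AXL and EGFR had between 3471 and 18413 normalized counts in every library, and the epithelial and hormone receptor markers ESR1, PGR, CDH1 and GATA3 summed to 348 to 362 in DMSO and 289 to 328 at 500 nM. PTPRC, HBB and ALB, markers of other cell types, were at 3.53 or less, and PECAM1 at 201 to 321.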

How the data were processed

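Poly-A RNA of 15 MDA-MB-231 dishes was sequenced by the authors in pairs of 150 bases, aligned to hg38 with HISAT2, counted per gene with HTSeq and normalized with DESeq2. Versions and the strand setting are not given in the sources used here. The deposited signal values are counts divided by DESeq2 size factors (0.916 to 1.13). Every value was a whole multiple of the smallest step of its library (100.0% within 0.001), so reads were recovered from these steps. 1 line without a gene was left out. Pairs of replicates differed beyond sampling noise (chi-square per degree of freedom 1.96 to 15.1), and each replicate was a separate dish.

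The log2 of the normalized count plus a pseudocount of 1 was fitted with limma 3.58.1 in R 4.3.3, with a variance trend on the mean, for 13561 genes with a mean of at least 10, in 1 fit of 5 groups with 10 residual degrees of freedom. P-values were adjusted by the Benjamini-Hochberg method over all these genes, with a threshold of 0.05. On this scale the change of genes with low counts comes out too small. Ratios were tested with two-sided permutation tests of the slope over library labels. The fits were tested on simulated data. The 9 genes, the lists and the rules were chosen with earlier results of these data known. Named are the 9 genes, their paralogs, up to 3 rises and 3 falls of each list, the 5 profiles most like HSPA5 and the markers; ATF4, DDIT3, KDELR1 and KDELR2 were added after their values were seen. Pseudogenes were sought with blastn 2.17.0, for at least 30% of the transcript at 85% identity. Alternatives were pseudocounts of 0.5 and 5, no filter or a minimum mean of 50, a block on the replicate number, scaling by TMM or to equal totals, edgeR 4.0.16 and DESeq2 1.42.0 on recovered reads, leaving out each library, a threshold of 0.1, each dose with DMSO alone, and slopes over the 12 treated libraries.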

Additional observations from a re-analysis of the deposited data

How the results depend on the processing

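The 72 results of the 9 chaperones (8 contrasts each) were recomputed 1773 times. Of these values 1695 kept their direction and their side of the threshold, 55 no longer passed, 10 passed in addition and 13 changed sign, all of them differences near 0 that never passed. HSPA5, MANF, CALR, HYOU1, HSP90B1, CRELD2 and SDF2L1 passed at 500 nM in each of the 25 alternatives. DESeq2 gave 3 falls from 0.5 to 5 nM in place of 1. Leaving out each library in turn gave 0 falls at 0.5 nM, 1 to 4 at 5 nM, 3 to 6 at 50 nM and 7 to 9 at 500 nM, 1 from 0.5 to 5 nM, 3 from 5 to 50 nM and 2 to 5 from 50 to 500 nM. It gave 6 to 8 slopes, 35 to 42 falls and 5 rises in the lists, 6 to 7 ratios to HSPA5 and 10 ratios to paralogs. With the same total per library HSPA5 at 0.5 nM was -0.0022 and HSP90B1 from 5 to 50 nM 0.0041. Over the 12 treated libraries the CANX slope was 0.02, that of HYOU1 no longer passed (adjusted p = 0.11, limma) and the CRELD2 to CRELD1 ratio passed (adjusted p = 0.048, permutation). With 1 library left out, the differences that changed sign ranged from -0.02 to 0.01 for HSPA5 and -0.04 to 0.03 for MANF at 0.5 nM, -0.03 to 0.02 for HSP90B1 from 5 to 50 nM and for HYOU1 at 50 nM, -0.02 to 0.10 for CANX and -0.05 to 0.06 for HYOU1 from 0.5 to 5 nM, -0.44 to 0.04 for CRELD1 and -0.05 to 0.04 for HSPBP1 at 500 nM, and -4.0e-04 to 0.0221 for the slope of CANX to CLGN. The causes were not tested. The labels give every group replicates 1 to 3, but libraries of the same number did not deviate together (r between -0.085 and 0.096). For 7 of 15 libraries the mean correlation was higher with libraries of their own number than with those of either other number. With the replicate number as a block, the CALR to HSPA5 ratio no longer passed (adjusted p = 0.057, permutation) and no other call of the 9 genes or their ratios changed.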
